A study of Mus musculus with 14 samples.

Results

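Ephrins and their Eph receptors were followed in sorted liver sinusoidal endothelial cells (LSECs) through 9 genes: the ligands Efna1, Efnb1 and Efnb2, the A receptors Epha2 and Epha4, and the B receptors Ephb1, Ephb2, Ephb3 and Ephb4. Members were found by matching the Ensembl identifiers of the count table to these symbols in GENCODE vM21. All 9 were among the 54524 genes of the table and all 9 passed the filter on low counts, which left 26626 genes for testing. Ephb1, Ephb2 and Ephb3 passed it only through libraries from days 3 and 7 after injury. The only members past the test against healthy LSECs were Efnb1, lower at day 3 after injury, and Ephb3, higher at days 3 and 7, in calls that leaving out single libraries often ended, while Efna1, Efnb1 and Ephb4 were the 3 most abundant transcripts per length of the family in every group.

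Eph receptors are receptor tyrosine kinases that bind ephrins on the surface of a neighbouring cell. A-type ephrins are held in the membrane by a lipid anchor, whereas B-type ephrins span it and can signal into the cell that carries them. In blood vessels Efnb2 is a classical marker of arterial endothelium and Ephb4, its main receptor, of venous endothelium, and the pair is known for keeping these territories apart and for guiding sprouting.

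The samples were male Balb/c mice of 10 to 12 weeks by the labels (the study's methods give a somewhat older range). Healthy LSECs (4 samples) came from mice that received no injection, and the others from mice 1 day (2 samples), 3 days (4 samples) and 7 days (4 samples) after a single intraperitoneal dose of carbon tetrachloride (CCl4), a solvent that injures hepatocytes, at 0.5 µl per g of body weight in mineral oil. By the study's account, 2 further day 1 samples were left out for low RNA integrity. As no group received oil alone, CCl4 and the injection itself cannot be told apart. LSECs were sorted without culture as CD32-positive, F4/80-negative, autofluorescence-negative and viable cells, and the methods add negativity for CD45. The study saw CD32b staining of the liver temporarily lost at days 1 and 3. The gate may therefore have taken a different part of the LSECs in these groups, which was not tested. The labels do not state whether each sample came from a separate mouse, so p-values measure the spread between samples. In sorted bulk RNA, fewer cells of a type and less RNA per cell cannot be told apart.

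Between 46401496 and 103912264 reads were counted per library. All 12 LSEC markers were present in every library, with a summed level of 20300 to 24200 CPM (read counts scaled to a common library size, with TMM factors) in healthy LSECs and 12300 to 17400 CPM in the injured groups. Some libraries stood apart. Day 3 replicates 1 and 2 held 4440 and 2670 CPM of 10 monocyte and neutrophil markers against 141 and 106 CPM in replicates 3 and 4, the day 1 libraries held 6970 and 2990 CPM, and healthy replicate 4 held 7010 CPM of 9 hepatocyte markers against 167 to 325 CPM in the other healthy libraries. Fold changes of the members and counts of gene lists were therefore also computed without either pair of day 3 libraries, and calls lost when single libraries were left out are named or counted beside the genes.

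The RefSeq promoter windows (250 bases before to 50 after the transcription start, GRCm38.p6) were searched on both strands for GGGCGG (the GC box), TGGGAA (the core bound by RBPJ, the DNA-binding partner of Notch) and CCGGAA (an ETS core). All 9 members matched a window. For 3 of them the sequence is shown, up to the first annotated start: Efnb1 and Ephb3 because their transcripts passed the test, and Ephb4 because it was the leading receptor. Capitals mark the motif matches, none of which overlap, and all 3 genes lie on the plus strand, at chrX:99135811-99136060, chr16:21204545-21204754 and chr5:137349859-137350108.
Efnb1: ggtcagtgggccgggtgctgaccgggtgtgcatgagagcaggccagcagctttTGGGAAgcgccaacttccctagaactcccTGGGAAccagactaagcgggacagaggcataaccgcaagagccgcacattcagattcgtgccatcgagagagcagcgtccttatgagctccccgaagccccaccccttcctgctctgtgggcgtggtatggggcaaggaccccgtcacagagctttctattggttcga
Ephb3: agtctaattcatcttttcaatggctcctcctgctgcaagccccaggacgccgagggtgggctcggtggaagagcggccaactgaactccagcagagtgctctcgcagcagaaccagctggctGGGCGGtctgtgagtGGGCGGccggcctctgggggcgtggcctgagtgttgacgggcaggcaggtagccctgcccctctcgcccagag
Ephb4: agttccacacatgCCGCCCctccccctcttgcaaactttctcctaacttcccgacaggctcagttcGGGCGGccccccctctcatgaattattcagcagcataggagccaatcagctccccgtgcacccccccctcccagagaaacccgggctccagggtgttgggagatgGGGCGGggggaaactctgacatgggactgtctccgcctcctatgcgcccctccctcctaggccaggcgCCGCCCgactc

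The Efnb1 window held 2 matches to the RBPJ core and no GC box, the Ephb3 window 2 GC boxes and the Ephb4 window 4. Of 32851 promoter windows of the same length, 35.7% held a GC box, 25.6% the RBPJ core and 14.9% the ETS core. A match describes letters in a window and shows no binding.

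In healthy LSECs the family was carried by a few transcripts. Per length, as CPM per kb of exon, Efna1 stood at 86.1 ± 31.7 (SD, n = 4), Efnb1 at 58.7 ± 10.6, Ephb4 at 54.2 ± 9.02, Efnb2 at 11 ± 1.34 and Epha2 at 5.42 ± 0.470. The ranges of Efna1, Efnb1 and Ephb4 overlapped, whereas Efnb2 lay below all of them and Epha2 below Efnb2. Epha4 followed at 0.173 ± 0.0277 CPM per kb, and Ephb3 (0.0148 ± 0.0109), Ephb1 (0.0144 ± 0.00462) and Ephb2 (0.00186 ± 0.00371) were close to the detection limit, with 35, 37 and 9 counts in all 4 healthy libraries together. Measured per length, Ephb4 made up 88.8% ± 1.32 of the receptor transcripts of the whole family in healthy LSECs and the 3 ligand members 99.4% ± 0.271 of the ligand transcripts.

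**Figure D1:**
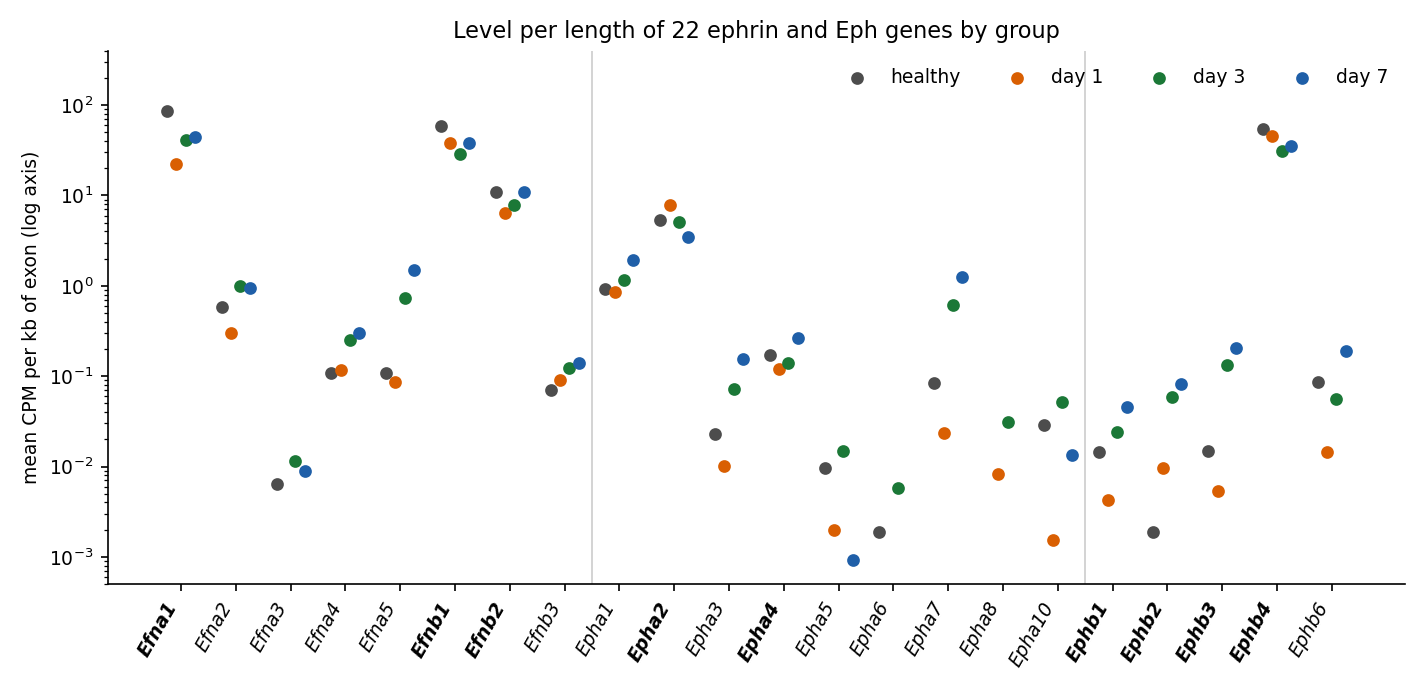
Mean level per length (CPM per kb of exon, log axis) of 22 ephrin and Eph genes, 1 point for each group, with the 9 members in bold and group means of 0 left out. Efna1, Efnb1 and Ephb4 sit highest in all 4 groups, and the low receptors Ephb2 and Ephb3 stand higher at days 3 and 7 than in healthy LSECs.

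The share of Ephb4 and Epha2 together in the family's receptor level per length was 97.8% ± 0.603 in healthy LSECs, 98.0% ± 0.535 at day 1, 92.8% ± 2.19 at day 3 and 90.5% ± 3.72 at day 7. All 8 libraries of days 3 and 7 lay at or below 96.0%, under the lowest healthy library at 97.0%. The 3 ligand members summed to 156 ± 21.3 CPM per kb in healthy LSECs, 67.2 ± 23.5 at day 1, 77.8 ± 13.5 at day 3 and 93.9 ± 11.6 at day 7, and no injured library (50.5 to 103) reached the lowest healthy one (124). The LSEC marker sum was likewise lower in every injured library than in any healthy one. How many of all genes lay apart in this way was not counted. The ratio of Ephb4 to Efnb2 per length was 5.01 ± 1.31 in healthy LSECs, 7.04 ± 0.125 at day 1, 3.69 ± 1.25 at day 3 and 3.44 ± 1.01 at day 7. Its 2 day 1 libraries lay above the highest healthy value (6.66), and the day 3 and day 7 ranges overlapped the healthy range.

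Efna1 (ENSMUSG00000027954, chr3:89271733-89281142), the A-type ephrin typical of endothelium and a ligand of Epha2, stood at 188, 174, 71.7 and 196 CPM in healthy replicates 1 to 4. At day 1 it was at 28.3 and 53.1 CPM, at day 3 at 103, 114, 27.1 and 58.5 CPM, and at day 7 at 60.1, 89.7, 88.3 and 87.4 CPM. Both day 1 libraries lay below every healthy library, while the day 3 and day 7 libraries overlapped the healthy range only through healthy replicate 3. The day 1 level was 25.8% of the healthy level (log2 fold change −1.95, SE 0.55), but the adjusted p of 0.0673 in edgeR's quasi-likelihood test missed the threshold of 0.05. Without healthy replicate 3 the value was −2.20 with an adjusted p of 0.0404, and without day 3 replicate 3 or 4, which enter only through the shared spread, it was 0.0220 and 0.0452. The other 11 single omissions left Efna1 uncalled at day 1 (log2 fold change −2.51 to −1.61 over all of them). Efna1 differed by −1.05 (SE 0.41, adjusted p 0.148) at day 3 and −0.95 (SE 0.41, adjusted p 0.207) at day 7 on the log2 scale, neither of them past the threshold. Leaving out day 3 replicates 1 and 2, the pair rich in monocyte and neutrophil transcripts, gave −1.91 (adjusted p 0.0284) at day 3, and leaving out replicates 3 and 4 gave −0.65 (adjusted p 0.226).

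Efnb1 (ENSMUSG00000031217, chrX:99136130-99148991), a transmembrane ephrin that binds B receptors, fell at day 3. It stood at 169, 205, 253 and 184 CPM in healthy LSECs, 102 and 164 CPM at day 1, 70.2, 55.2, 122 and 148 CPM at day 3, and 127, 115, 135 and 154 CPM at day 7. All 10 injured libraries lay below the lowest healthy library, as they did for the LSEC marker sum. The share of all genes with this pattern was not counted. The day 3 level was 48.7% of the healthy level (log2 fold change −1.04, SE 0.28, 95% interval −1.65 to −0.43, adjusted p 0.0429 in edgeR). At day 1 the log2 fold change was −0.61 (SE 0.35, adjusted p 0.418) and at day 7 −0.61 (SE 0.28, adjusted p 0.235), which did not pass. The day 3 call was close to the threshold: leaving out any library other than day 3 replicate 3 or 4 put it past 0.05 (adjusted p up to 0.116, log2 fold change −1.37 to −0.82 over all 14 omissions). Without day 3 replicates 1 and 2 it was −0.61 (adjusted p 0.107) and without replicates 3 and 4 −1.82 (adjusted p 0.000851).

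Efnb2 (ENSMUSG00000001300, chr8:8617434-8661242), the arterial ephrin, ranged from 62.0 to 81.9 CPM in healthy LSECs, 38.1 to 50.3 CPM at day 1, 28.9 to 83.1 CPM at day 3 and 60.5 to 102 CPM at day 7. The day 1 libraries lay below the healthy range, and those of days 3 and 7 overlapped it. Its log2 fold changes against healthy LSECs were −0.78 (SE 0.35, adjusted p 0.261) at day 1, −0.51 (SE 0.28, adjusted p 0.308) at day 3 and −0.01 (95% interval −0.60 to 0.58) at day 7. None passed the threshold. Without day 3 replicate 4 the day 3 value was −0.88 with an adjusted p of 0.0326, and without replicates 1 and 2 it was −0.16 (adjusted p 0.699). The other 13 single omissions left Efnb2 uncalled at day 3 (−0.88 to −0.36 over all omissions).

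**Figure D2:**
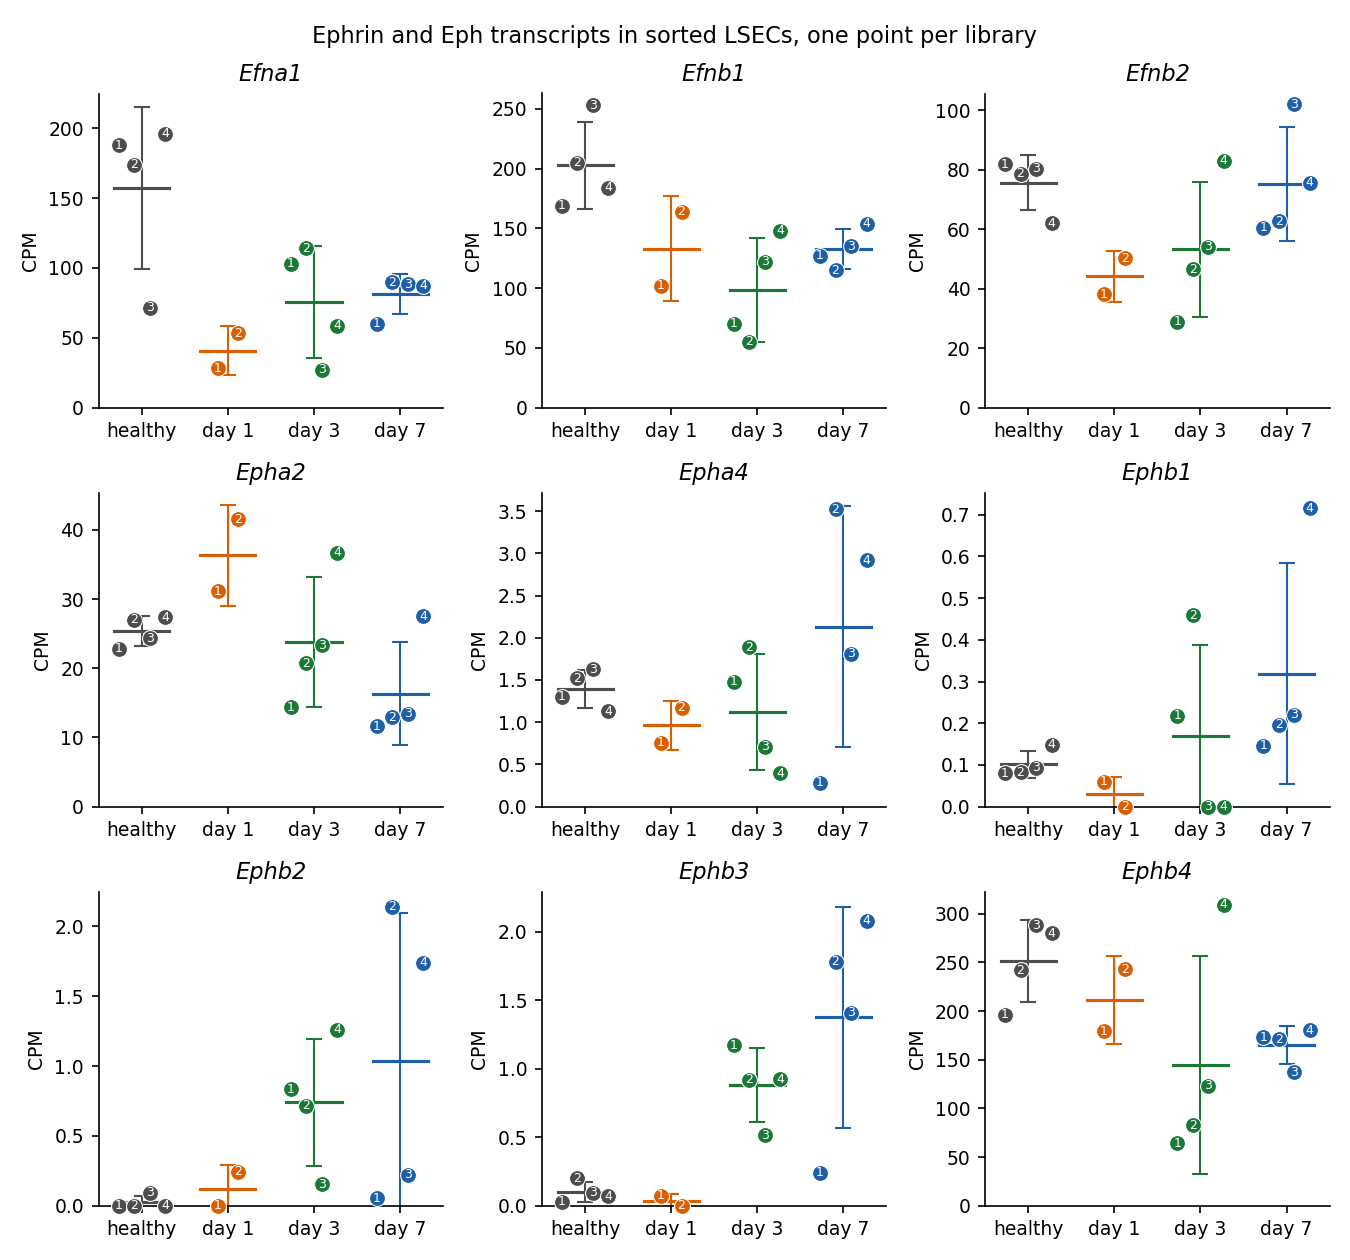
TMM-scaled CPM of the 9 members (y axis, from 0) in healthy LSECs and 1, 3 and 7 days after CCl4; each point is a library with its replicate number, the horizontal line is the group mean and the bar 1 SD. Every injured Efnb1 library lies below the healthy ones, Ephb3 is higher at days 3 and 7, and at day 3 Ephb4 spreads from 64.3 CPM in replicate 1 to 309 CPM in replicate 4.

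Epha2 (ENSMUSG00000006445, chr4:141301240-141329384), an A receptor of epithelium and activated endothelium, ranged from 22.8 to 27.4 CPM in healthy LSECs, 31.1 to 41.5 CPM at day 1, 14.4 to 36.7 CPM at day 3 and 11.6 to 27.5 CPM at day 7. Both day 1 libraries lay above the healthy range, and 3 of 4 day 7 libraries (11.6, 12.9 and 13.4 CPM) lay below it. The log2 fold changes were 0.52 (SE 0.37, adjusted p 0.535), −0.09 (SE 0.31, adjusted p 0.895) and −0.63 (SE 0.31, adjusted p 0.259) at days 1, 3 and 7. Epha4 (ENSMUSG00000026235, chr1:77367185-77515088), which binds ephrins of both types, was low, at 1.13 to 1.63 CPM in healthy LSECs, 0.754 to 1.17 CPM at day 1, 0.393 to 1.89 CPM at day 3 and 0.281 to 3.52 CPM at day 7. Its spread widened from a highest-to-lowest ratio of 1.44 in healthy LSECs to 12.6 at day 7, and its fold changes did not pass the test at any day.

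Ephb4 (ENSMUSG00000029710, chr5:137350109-137378669), the venous receptor of Efnb2, stood at 196, 242, 288 and 280 CPM in healthy LSECs and 179 and 243 CPM at day 1. At day 3 it was at 64.3, 82.7, 123 and 309 CPM, and at day 7 at 173, 171, 137 and 180 CPM. The 4 day 7 libraries lay below the healthy range, and at day 3 replicates 1 to 3 lay below it and replicate 4 above it. The log2 fold changes of −0.25 (SE 0.47), −0.80 (SE 0.38) and −0.60 (SE 0.38) at days 1, 3 and 7 had adjusted p-values of 0.870, 0.245 and 0.385 and were not called. Without day 3 replicate 4 the day 3 value was −1.56 with an adjusted p of 0.00474, and without replicates 1 and 2 it was −0.25 (adjusted p 0.667). The other 13 single omissions left Ephb4 uncalled at day 3 (−1.56 to −0.58 over all omissions). Ephb4 shares 33 exonic bases with Zan, and the use of strand in counting was not given in the sources used here, so reads in those bases cannot be assigned.

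Ephb3 (ENSMUSG00000005958, chr16:21204755-21223305), a B receptor known for cell positioning in epithelium, rose at days 3 and 7. Healthy replicates 1 to 4 held 3, 17, 9 and 6 counts, and the day 1 libraries 6 and 0. At day 3 the counts were 97, 54, 47 and 87, and at day 7 they were 23, 127, 64 and 183. No library of day 3 (0.513 to 1.17 CPM) or day 7 (0.239 to 2.08 CPM) overlapped the healthy range (0.0299 to 0.200 CPM). Ephb3 was 8.93-fold higher at day 3 (log2 fold change 3.16, SE 0.83, adjusted p 0.0360) and 13.9-fold higher at day 7 (3.80, SE 0.85, adjusted p 0.0309). Outside these days only healthy replicate 2 reached the filter's minimum count of 10. Ephb3 thus entered the test through the groups where it was high, which limits what its fold changes and calls show. Even at day 7 its level per length, 0.207 ± 0.121 CPM per kb, was far under the 35.6 ± 4.10 CPM per kb of Ephb4.

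Both Ephb3 calls were near the threshold. The day 3 call was lost without healthy replicate 1, 3 or 4, day 3 replicate 1 or 2, or day 7 replicate 3 or 4 (adjusted p 0.0563 to 0.100, log2 fold change 2.86 to 3.75 over all omissions), and the day 7 call without any of the healthy libraries or day 7 replicate 2, 3 or 4 (adjusted p 0.0526 to 0.0981, log2 fold change 3.50 to 4.40). Without day 3 replicates 1 and 2 the day 3 value was 2.84 (adjusted p 0.0859), and without replicates 3 and 4 it was 3.28 (adjusted p 0.0237). With the replicate number as a block, the adjusted p-values were 0.0809 at day 3 and 0.0739 at day 7.

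Ephb2 (ENSMUSG00000028664, chr4:136647539-136835988), which shares ligands with Ephb3, had 0, 0, 9 and 0 counts in healthy LSECs, 0 and 22 at day 1, 69, 42, 14 and 119 at day 3 and 5, 153, 10 and 153 at day 7. All 4 day 3 libraries (0.153 to 1.26 CPM) lay above the healthy ones, and 2 day 7 libraries were low (0.0520 and 0.220 CPM) and 2 high (1.74 and 2.14 CPM). The fitted log2 fold changes of 4.87 (SE 1.56) at day 3 and 5.36 (SE 1.58) at day 7, set against 3 healthy libraries without a count, had adjusted p-values of 0.0774 and 0.0802 and were not called. Ephb2 too entered the test through days 3 and 7, as elsewhere day 1 replicate 2 alone reached 10 counts. Without day 7 replicate 1 the day 7 value was 5.77 with an adjusted p of 0.0456. The other 13 single omissions left Ephb2 uncalled at day 7 (4.74 to 9.43 over all omissions). The day 3 value was 4.79 (adjusted p 0.113) without day 3 replicates 1 and 2 and 4.80 (adjusted p 0.0554) without replicates 3 and 4. Ephb1 (ENSMUSG00000032537, chr9:101922128-102354693) stayed between 0 and 0.715 CPM in all 14 libraries, with no count in day 1 replicate 2 and day 3 replicates 3 and 4, where 3 counts would correspond to 0.0330, 0.0328 and 0.0318 CPM. No fold change of Ephb1 passed the test, and 152 of its exonic bases overlap the gene Gm26846.

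Counted over the members, none of the 9 was called at day 1, where 4.06% of all tested genes were (2 of 9, Efna1 and Efnb2, had an unadjusted p under 0.05, DESeq2 called 1 and limma-voom 3). At day 3, 2 of 9 were called, Efnb1 lower and Ephb3 higher, beside 7.19% of all tested genes, and at day 7 Ephb3 alone beside 3.18%. Groups did not overlap for 5 of 9 members at day 1 (37.9% of all genes), 3 of 9 at day 3 (14.4%) and 3 of 9 at day 7 (20.8%). On 9 genes, counts of this size are not read as a property of the family. The median log2 fold change of the members was −0.61 at day 1, −0.32 at day 3 and −0.01 at day 7, and over all tested genes it was −0.03, 0.18 and 0.02.

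**Figure D3:**
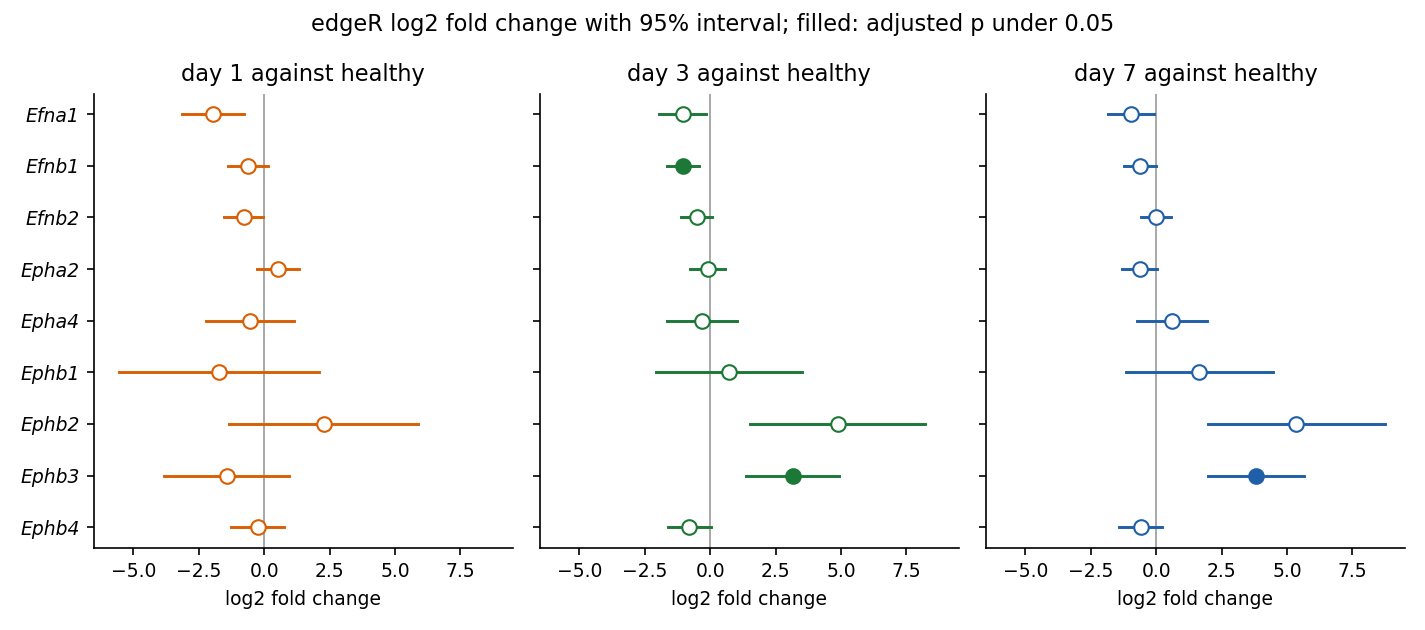
Log2 fold change (x axis) of the 9 members against healthy LSECs at days 1, 3 and 7 from edgeR, with 95% intervals as lines; filled points have an adjusted p under 0.05. Efnb1 at day 3 (−1.04) and Ephb3 at days 3 (3.16) and 7 (3.80) are filled, and the intervals of Ephb1 and Ephb2 are the widest.

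Between the injured groups none of the 9 members passed the test. Day 3 against day 1 called 2.54% of all genes and day 7 against day 3 1.77%. In the former, 1 member had an unadjusted p under 0.05, Ephb3, at a log2 fold change of 4.59 (SE 1.23, adjusted p 0.0704) over 6 counts in the 2 day 1 libraries together, and DESeq2 called 1 member and limma-voom 3. In the latter, none had an unadjusted p under 0.05, DESeq2 called none and limma-voom 3. From day 3 to day 7 Efnb1 differed by 0.43 (95% interval −0.18 to 1.03), Efnb2 by 0.50 (−0.09 to 1.09) and Ephb4 by 0.19 (−0.63 to 1.01) on the log2 scale. Groups did not overlap for 1 of 9 members from day 1 to day 3 (21.8% of all genes) and for 0 of 9 from day 3 to day 7 (7.91%).

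The day 3 libraries split in members both abundant and low. Efnb1, Efnb2, Epha2 and Ephb4 were each lower in replicates 1 and 2 than in replicates 3 and 4, and Efna1 was higher (103 and 114 against 27.1 and 58.5 CPM). Of the low members, Epha4 (1.48 and 1.89 against 0.710 and 0.393 CPM) and Ephb1 (0.218 and 0.459 CPM against no count) were higher too. Ephb2 and Ephb3 did not split this way, and the share of all genes that did was not counted. Replicates 1 and 2 are the pair with 4440 and 2670 CPM of monocyte and neutrophil markers, and 34678 and 34768 genes had a count in them against 28203 and 22986 in the others. The part of either in the members' levels was not tested. With replicates 3 and 4 left out, 4 of 9 members were called at day 3 (Efnb1 −1.82, Efnb2 −1.12 and Ephb4 −1.90, Ephb3 3.28) and 3 were called from day 3 to day 7 (Efnb1 1.21, Efnb2 1.11 and Ephb4 1.30 on the log2 scale). With replicates 1 and 2 left out, Efna1 alone was called at day 3, at −1.91. Calls over all genes rose as well. Without replicates 3 and 4 they went from 1915 to 6245 at day 3 and from 846 to 4042 at day 7. From day 3 to day 7 they went from 472 to 6133, so these counts are not read as a property of the members. Epha2, Epha4 and Ephb1 were called at day 3 under neither omission. Although the day 3 libraries enter the other comparisons only through the shared spread, filter and scaling, Efna1 was called at day 1 under both omissions (−1.98, adjusted p 0.0246 and 0.00966), and without replicates 3 and 4 Efnb1 (−0.61, adjusted p 0.0442), Ephb4 (−0.60, adjusted p 0.0433) and Ephb2 (5.36, adjusted p 0.0413) were called beside Ephb3 at day 7. The LSEC marker sum was 12500, 13900, 15400 and 17100 CPM in day 3 replicates 1 to 4, below the healthy range in each. Efnb2, Epha2 and Ephb4 ran in that order, and Efnb1 did so except that replicate 2 was its lowest. The other members did not. The part of the marker sum in the members' levels was not tested.

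Stellate cell and fibroblast markers moved beside the low receptors. Of 14 such markers, 11 were called higher at day 3 and 11 at day 7, and none at day 1 (9 and 13 without day 3 replicates 1 and 2, 12 and 13 without replicates 3 and 4). Their summed level was 158 to 286 CPM in healthy LSECs, 114 to 138 CPM at day 1, 870 to 2700 CPM at day 3 and 469, 7680, 1630 and 2830 CPM in day 7 replicates 1 to 4. Ngfr was the only marker of the list at 0 in some library, in healthy LSECs and at day 1. Reln, also in this list, is among the genes the study found enriched in healthy human LSECs. Day 7 replicate 1, with the lowest sum, was also the lowest day 7 library for Epha4, Ephb1, Ephb2 and Ephb3, and at day 3 replicate 3 had the lowest sum and the lowest Ephb3 and Ephb2. Epha4 and Ephb1 went the other way at day 3, where replicate 4, with the highest sum, had the lowest Epha4 (0.393 CPM) and no count of Ephb1, which was also at 0 in replicate 3. The sort excluded cells with ultraviolet autofluorescence, the gate set against stellate cells, and doublets. Whether these receptors were transcribed in LSECs or in stellate cells was not tested.

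**Figure D4:**
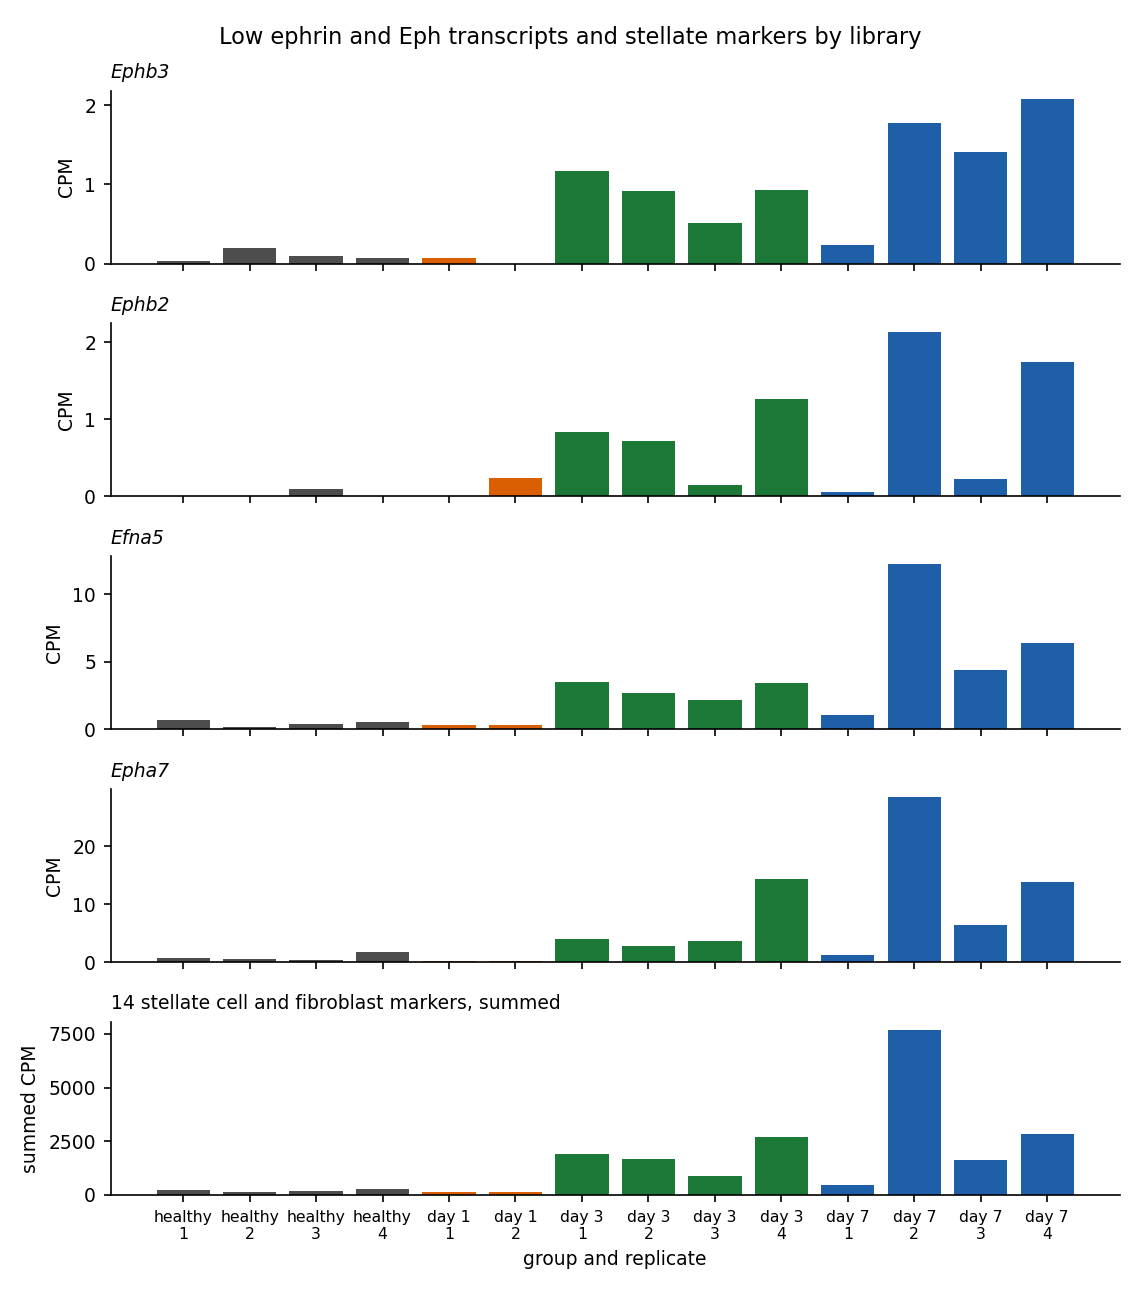
CPM of Ephb3, Ephb2, Efna5 and Epha7 and the summed CPM of 14 stellate cell and fibroblast markers (y axes, from 0) in each of the 14 libraries, coloured by group. Day 7 replicate 1 is lowest and replicate 2 or 4 highest among the day 7 libraries in each panel, the marker sum running from 469 to 7680 CPM.

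Of the 13 other ephrin and Eph genes examined, 11 passed the filter (Efna3 and Epha6 did not). None was called at day 1, 1 was called higher at day 3 and 2 at day 7, and none was called lower. Of all tested genes, 4.06%, 7.19% and 3.18% were called at days 1, 3 and 7. Efna5, an A-type ephrin known from axon guidance, was at 0.439 ± 0.201 CPM (SD, n = 4) in healthy LSECs, 2.94 ± 0.622 CPM at day 3 (log2 fold change 2.74, adjusted p 0.0167) and 6.0 ± 4.70 CPM at day 7 (3.77, adjusted p 0.00957). No day 3 or day 7 library of Efna5 overlapped the healthy range. Epha7, an A receptor that binds Efna5, was at 0.820 ± 0.607 CPM in healthy LSECs and 12.4 ± 11.8 CPM at day 7 (3.92, adjusted p 0.0301), with the day 7 libraries at 1.29, 28.4, 6.31 and 13.8 CPM. Its day 3 value of 2.90 missed the threshold (adjusted p 0.0524). The day 7 call of Efna5 passed in each of the 14 single omissions, and its day 3 call was lost without healthy replicate 2 or 3 (adjusted p up to 0.0517). The day 7 call of Epha7 was lost in 8 of them, without healthy replicate 1, 2 or 3, either day 1 library, or day 7 replicate 2, 3 or 4 (adjusted p up to 0.101, log2 fold change 3.12 to 4.59). Without day 3 replicates 1 and 2 the day 3 value of Epha7 was 3.40 (adjusted p 0.0476), and without replicates 3 and 4 it was 1.89 (adjusted p 0.144). The median log2 fold change of the 11 genes was −0.95 at day 1, 0.83 at day 3 and 1.06 at day 7. Across day 7 replicates 1 to 4, Efna5 (1.02, 12.2, 4.41 and 6.35 CPM) and Epha7 ran in the order of the stellate marker sum. The sum was 469, 7680, 1630 and 2830 CPM in these libraries. At day 3 replicate 3 was lowest in the sum and in Efna5, and replicate 2 in Epha7. Whether Efna5 and Epha7 were transcribed in LSECs or in stellate cells was not tested.

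Transcripts of proteins that act downstream of or beside Eph receptors were examined as a list of 45 genes, all tested. At day 1, 1 was called higher and 3 lower, beside 4.06% of all tested genes. Chn2, a chimaerin that inactivates Rac, was at 27.8 ± 4.68 CPM (SD, n = 2) against 5.41 ± 2.34 CPM in healthy LSECs (log2 fold change 2.36, adjusted p 0.00638). The Rac activator Tiam1 fell by 1.89 on the log2 scale (adjusted p 0.0102), Rgs3, a regulator of G protein signalling that binds B ephrins, fell by 1.19 (adjusted p 0.0382), and the endothelial phosphatase Ptprb, also an LSEC marker, fell by 0.85 (adjusted p 0.0423). Omitting day 1 replicate 2 ended the calls of Chn2 (adjusted p 0.0584) and Tiam1 (adjusted p 0.130), and omitting either day 1 library or any healthy library ended those of Rgs3 and Ptprb (adjusted p up to 0.548 and 0.493), as did omitting day 7 replicate 4 for Rgs3.

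At day 3, 1 of the 45 partners was called higher and 5 lower, beside 7.19% of all tested genes. Chn2 was still higher (1.27, adjusted p 0.0493). The adaptor Nck1 was lower by −0.94 (adjusted p 0.0283), the Src family kinases Fyn by −0.88 (adjusted p 0.0465) and Yes1 by −1.03 (adjusted p 0.0431), Tiam1 by −1.04 (adjusted p 0.0360) and Ptprb by −0.69 (adjusted p 0.0272). The day 3 calls of Nck1 and Ptprb passed without either day 3 pair, and the others were lost without replicates 1 and 2. Without day 3 replicates 1 and 2, the adaptor Crk was called higher and only Nck1 and Ptprb of the 45 lower, with Chn2 at 0.66 (adjusted p 0.291), Fyn at −0.50 (adjusted p 0.122), Yes1 at −0.67 (adjusted p 0.160) and Tiam1 at −1.10 (adjusted p 0.0657), and without replicates 3 and 4, 2 were called higher and 16 lower. In single omissions Chn2 was called in 2 of 14, Fyn and Yes1 in 4, Tiam1 in 10, and Nck1 and Ptprb in 11, the last pair being lost without healthy replicate 1, 2 or 3. At day 7 the ubiquitin ligase Cbl was the only partner called, at 59.0 ± 6.90 against 32.6 ± 4.00 CPM (SD, n = 4 each; log2 fold change 0.86, adjusted p 0.0105). At day 7, 2 partners were called higher and 3 lower without day 3 replicates 1 and 2 (Nck1, Grb10, Crk, Fyn and Cbl), and without replicates 3 and 4, 4 higher and 7 lower. At day 1 these omissions gave 1 higher and 5 lower, and 1 higher and 7 lower. Calls over all genes moved too. With all libraries, 3.18% of tested genes were called at day 7. The omissions called 1952 and 2728 genes at day 1, 2417 and 6245 at day 3, and 2306 and 4042 at day 7. The list's median log2 fold change was −0.04 at day 1, 0.08 at day 3 and −0.09 at day 7, close to that of all genes. From day 1 to day 3 Rac1 fell by 1.51 on the log2 scale (adjusted p 0.0212), the only partner called between injured groups. The call of Cbl passed in all 14 single omissions, and that of Rac1 was lost without either day 1 library (adjusted p up to 0.234).

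Arterial and venous endothelial genes, the territories that Efnb2 and Ephb4 mark, were counted as well. Over all tested genes, 4.06%, 7.19% and 3.18% were called at days 1, 3 and 7. Leaving out either day 3 pair raised the calls over all genes at each day, as given above. Of 15 arterial genes, 1 was called higher and 2 lower at day 1, 4 lower at day 3 and none at day 7. These counts were 1 higher and 3 lower at each of the 3 days without day 3 replicates 1 and 2, and without replicates 3 and 4 they were 2 higher and 4 lower at day 1, 2 higher and 6 lower at day 3, and 1 higher and 3 lower at day 7. The genes called at day 7 under both omissions were Dll4, Nrp1, Cxcr4 and Acvrl1, named after their values were seen. The Notch target Hey1 stood at 8.07 ± 2.73 CPM (SD, n = 4) in healthy LSECs, fell by 2.03 at day 1 (adjusted p 0.00662) and by 1.47 at day 3 (adjusted p 0.00734) on the log2 scale, and rose by 1.72 from day 3 to day 7 (adjusted p 0.0108). The VEGF and semaphorin co-receptor Nrp1 fell by 2.30 at day 1 (adjusted p 0.00640) and by 1.06 at day 3 (adjusted p 0.0466). Gja5 (−1.30, adjusted p 0.0188) and Sox17 (−0.74, adjusted p 0.0302) were lower at day 3. The gap junction gene Gja4 rose by 1.66 at day 1 (adjusted p 0.0484) and was lower at day 3 than at day 1, by −1.86 (adjusted p 0.0380), as was Gja5, by −1.59 (adjusted p 0.0276). Hey1 passed at day 3 and from day 3 to day 7 in each of the 14 single omissions and at day 1 in 12, the exceptions being the day 1 libraries. Nrp1 was lost at day 1 without day 1 replicate 1 (adjusted p 0.239) and at day 3 in 12 omissions, all but those of day 3 replicates 3 and 4. Without day 3 replicates 1 and 2, Nrp1 was at −0.63 (adjusted p 0.119) and Sox17 at −0.71 (adjusted p 0.0768) at day 3. Gja4 at day 1 was called in 6 of the 14 single omissions, Gja5 at day 3 in 12 and Sox17 in 9. From day 1 to day 3, Gja4 was called in 7 of them (adjusted p up to 0.254), and Gja5 was lost without either day 1 library (adjusted p up to 0.267).

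Of 10 venous genes, P-selectin (Selp) was called higher at day 1 (3.25, adjusted p 0.00798) and day 3 (2.39, adjusted p 0.0167), the chemokine-binding receptor Ackr1 was lower at day 1 (−1.61, adjusted p 0.0248), and none was called at day 7. The venous genes, without day 3 replicates 1 and 2, counted 2 higher and 2 lower at day 1, 3 lower at day 3 and 3 lower at day 7 (Emcn, Ackr1 and Wnt2 at both of the later days). Without replicates 3 and 4 they counted 2 higher and 2 lower, 3 higher and 2 lower, and 1 higher and 3 lower. The day 1 call of Selp was lost without day 1 replicate 1 (adjusted p 0.0543) and its day 3 call without healthy replicate 1 or 3 (adjusted p up to 0.0573). Selp at day 3 was at 0.92 (adjusted p 0.123) without day 3 replicates 1 and 2 and at 2.97 (adjusted p 0.000401) without replicates 3 and 4. Ackr1 was called in 9 of 14 single omissions, the exceptions being healthy replicates 1 to 3 and both day 1 libraries. The medians were 0.11, −0.21 and −0.09 for the arterial list and −0.14, −0.19 and 0.07 for the venous list at days 1, 3 and 7. Efnb2 and Ephb4 did not themselves pass the test at any day.

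The genes whose log2 CPM followed each member most closely over the 14 libraries were ranked by Pearson's r among tested genes with a mean log2 CPM of at least 1 and no predicted-gene name. This is a description only, since the libraries share groups and composition. Efnb1 was closest to Tcf7l1 (r = 0.969), a transcription factor of the Wnt pathway, Efnb2 to Dock6 (0.960) and Sema6a (0.950), and Ephb4 to Slc44a2 (0.977). Ephb3 was closest to Tbx20 (0.961) and Reln (0.958), the latter one of the 14 stellate cell markers but listed by the study as enriched in healthy human LSECs. Ephb2 was closest to Matn2 (0.917), Epha2 to Tnfrsf22 (0.923), Epha4 to Rasl11a (0.879), Ephb1 to Trim14 (0.867) and Efna1 to Zfp652os (0.843). Among the members, Efnb1 and Ephb4 had the highest r (0.865), followed by Ephb2 and Ephb3 (0.742).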

How the data were processed

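RNA from sorted LSECs was measured in 14 samples: 4 healthy, 2 at day 1, 4 at day 3 and 4 at day 7 after CCl4, grouped by their labels. The authors trimmed the reads, used STAR for mapping to GRCm38.p6 and StringTie for assembly, and deposited unnormalized whole-number counts per Ensembl gene. The annotation release, the use of strand and how StringTie output became whole numbers are not given in the sources used here. The sequencing is described as paired-end in one place and single-end in another. GENCODE vM21 held 54495 of the 54524 genes and was the source of their names, positions and exon lengths.

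The counts were filtered with filterByExpr (minimum count 10, minimum total 15), scaled by TMM and passed to edgeR 4.0.16 (under R 4.3.3), whose quasi-likelihood test was run on a single fit of 4 group means, with Benjamini-Hochberg adjustment over all 26626 tested genes and a threshold of 0.05. Standard errors were taken from the fold change and its F statistic. CPM uses TMM-scaled library sizes, log2 CPM a prior count of 2, and CPM per kb the union of a gene's exons. Fewer than 3 counts were taken as not detected. This floor covers counting error only.

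DESeq2 1.42.0, limma-voom 3.58.1 with quality weights, RLE factors, library size only, other filters, fits of only the 2 groups compared, a replicate block and leaving out each sample were the alternatives. Leaving out pairs of day 3 libraries, and repeating all settings for the other named genes, were added after seeing the data. The genes named were all members, other family genes and list genes where called, and for each member the genes of closest correlation. Named list genes are restricted to those called. The members and lists were chosen with earlier results of these data known. Stretches of 100 bases shared with transcripts of other genes were found for Ephb1 alone (0.831% of its stretches, with Gm26846).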

Additional observations from a re-analysis of the deposited data

Results flagged for a closer look

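In 27 groups of 4 libraries (9 members in healthy, day 3 and day 7 LSECs), 5 held a library whose gap to its nearest neighbour exceeded the share of the group's range that Dixon's 95% critical value allows. For normally distributed values chance flags about 1 in 20 such groups, a rate that need not hold for counts near 0. Day 1, with 2 libraries, was not tested. Efna1 was at 60.1 CPM in day 7 replicate 1, below 87.4 CPM in the next library. Efnb2 was at 62.0 CPM in healthy replicate 4, the library with 7010 CPM of hepatocyte markers, below 78.6 CPM in the next. Epha2 was at 27.5 CPM in day 7 replicate 4, above 13.4 CPM in the next. Ephb1 was at 0.715 CPM (63 counts) in day 7 replicate 4, above 0.220 CPM in the next. Ephb2 was at 0.0936 CPM (9 counts) in healthy replicate 3, where the other healthy libraries had no count. With no count in the others, any count in 1 library would be flagged, so this flag carries no information.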

How the results depend on the processing

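Of 340 fold changes of members under other tools, scalings, filters and fits, 303 kept their direction and their side of the threshold, 23 passed only there, 5 lost their call and 9 changed sign. Of the 28 calls of other genes named in the text, 12 passed in all 8 of these settings, 4 passed in every single omission, and 7, all at day 3, were lost without day 3 libraries 1 and 2. None changed sign. Counts below follow the order day 1, day 3 and day 7 against healthy, day 3 against day 1, day 7 against day 3. In edgeR as reported, 1080, 1915, 846, 676 and 472 genes and 0, 2, 1, 0 and 0 members were called. DESeq2 called 2839, 3791, 2714, 2408 and 1783 genes and 1, 3, 2, 1 and 0 members. Limma-voom called 4308, 7265, 7047, 3344 and 6002 genes and 3, 5, 4, 3 and 3 members. Fits of only the 2 groups called 2327, 1108, 3156, 189 and 1 genes and 1, 1, 3, 0 and 0 members. At least 10 counts in every sample left 6 members to test, with 1, 1 and 0 called against healthy. Library size alone called 1 member at day 3 and 287 genes from day 3 to day 7, and no filter 1 member and 157 genes there. With library size alone the split of higher and lower calls went from 1229 and 686 to 1207 and 401 at day 3, and from 582 and 264 to 619 and 94 at day 7. The cause of these shifts was not tested.

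The labels give no batch, litter or pairing for the replicate numbers. Same-numbered samples deviated together with correlations of −0.232 to 0.096, and 4 of 16 correlated best with their own number. The rate of such matches by chance was not computed, so these values do not settle whether samples were paired. With the replicate block, 594, 1385, 435, 311 and 244 genes and 0, 1, 0, 0 and 0 members were called. The block turned the fold change of Ephb4 at day 1 to 0.02 and of Ephb2 from day 3 to day 7 to −0.45.

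With day 3 libraries 1 and 2 left out, 1952, 2417, 2306, 1923 and 638 genes and 1, 1, 1, 0 and 0 members were called, and with libraries 3 and 4 left out 2728, 6245, 4042, 2784 and 6133 genes and 1, 4, 4, 3 and 3 members. Leaving out each library in turn gave 164 to 1845, 946 to 3314, 193 to 2166, 49 to 932 and 26 to 1652 genes, and 0 to 1, 0 to 4, 0 to 2, 0 to 1 and 0 to 1 members.

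Changes of sign were confined to fold changes that were not called, in the alternatives named here. Efnb2 at day 7 (−0.01) became 0.03 with RLE factors and DESeq2, 0.06 with library size alone, 0.08 with the stricter filter, 0.01 without day 3 libraries 1 and 2, and −0.15 to 0.07 over single omissions. Limma-voom gave 0.02 for Epha4 at day 3, −0.11 for Efnb2 from day 1 to day 3 and −0.16 for Efna1 from day 3 to day 7. Without day 3 libraries 1 and 2, Epha2 was 0.21 and Ephb1 −6.15 at day 3 (no count was left at day 3, so the fitted value sets no bound), Efnb1 0.02, Epha4 −0.80, Ephb1 −4.39 and Ephb4 0.04 from day 1 to day 3, and Ephb4 −0.34 from day 3 to day 7. Without libraries 3 and 4, Epha4 was 0.15 at day 3, Efnb2 −0.33 from day 1 to day 3, and Efna1 −0.30 and Epha2 0.02 from day 3 to day 7. Single omissions gave −4.09 to 6.35 for Ephb2 at day 1, −0.47 to 0.02 for Epha2 and −0.46 to 1.00 for Ephb1 at day 3, −0.18 to 0.44 for Epha4 and −0.09 to 0.44 for Efnb2 from day 1 to day 3, and 0.00 to 0.40 for Efna1 and −0.14 to 1.02 for Ephb2 from day 3 to day 7. Per length of the longest transcript, healthy levels were 15.8 CPM per kb for Efnb2, 6.48 for Epha2, 0.220 for Epha4 and 0.0217 for Ephb1. Depth limits Ephb1, Ephb2 and Ephb3, whose healthy levels rest on 9 to 37 counts.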

Other observations

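Markers of other cells were counted in the same libraries. Of 7 other endothelial markers, none was called at day 1 or day 7, and 2 were higher and 2 lower at day 3. Of 12 LSEC markers, 2 were higher and 3 lower at day 1, 1 higher and 3 lower at day 3, and none was called at day 7. Of 10 monocyte and neutrophil markers, 6 were higher at day 1, 4 at day 3 and 1 at day 7, and of 6 proliferation genes, 6 were higher at day 3 and none at day 1 or day 7. None of 9 hepatocyte or 8 lymphocyte markers was called against healthy LSECs, although 8 of the hepatocyte markers had an unadjusted p under 0.05 at day 1. Healthy replicate 4 held 7010 CPM of the hepatocyte markers and the other healthy libraries 167 to 325 CPM. The sums were 29.1 and 122 CPM at day 1, 761 to 2780 CPM at day 3 and 718 to 5670 CPM at day 7. The lack of calls therefore does not show that hepatocyte RNA was unchanged. Of 7 cholangiocyte and 8 Kupffer cell and macrophage markers, 1 each was higher at day 3 and at day 7 and none at day 1. Several of these counts moved with the day 3 libraries, at the other days too. Calls over all genes against healthy LSECs also rose when either pair was left out. Without day 3 replicates 1 and 2, monocyte and neutrophil markers counted 10, 2 and 5 higher at days 1, 3 and 7, and without replicates 3 and 4 they counted 8, 10 and 5. Proliferation genes went from 6 higher at day 3 to 2 without replicates 3 and 4, and at day 7 from none to 2 under either omission. LSEC markers called lower went from 3 to 8 at day 3 without replicates 3 and 4, and at day 7 from none to 2 and 5. Of the other endothelial markers, 1 was higher and 3 lower, and 1 higher and 2 lower, at day 1, and 2 higher and 1 lower, and 2 lower, at day 7. Hepatocyte markers stayed at none called under both omissions, with healthy replicate 4 still in the fits.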
